A study of Rattus norvegicus with 16 samples.

Results

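The Slc25 family of mitochondrial carriers was described in the livers of male rats that had lost their adrenal glands or had sham surgery and then breathed ozone or air. Members were the genes of the deposited liver table whose symbol starts with Slc25a followed by a number, which gave 47 of 22587 genes. Of these, 43 had a mean of at least 14.7 normalized counts over the 16 libraries and were tested, and 4 were under that mean. The 4 groups of 4 libraries each were ADREX ozone (total bilateral adrenalectomy, 4 h of ozone at 0.8 ppm), ADREX air (the same surgery, air), SHAM ozone (sham surgery, the same ozone exposure) and SHAM air (sham surgery, air). All rats were males aged 13 weeks of the strain labelled Wistar-Wyoto, and all RNA came from flash-frozen whole liver. Groups follow the sample titles. In the labels, the treatment entry reads ozone in each of the 8 ADREX libraries, also in the 4 titled air, so every comparison that involves ADREX air rests on the titles. The labels do not say whether each library is a separate rat, and p-values measure the spread between these libraries.

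Slc25 carriers are proteins of the inner mitochondrial membrane, made in the cytosol and imported, that exchange metabolites, nucleotides and cofactors between the cytosol and the mitochondrial matrix. In hepatocytes they connect cytosolic and mitochondrial steps of the urea cycle, of gluconeogenesis, of citrate export for fat synthesis and of fatty acid oxidation. Adrenal glucocorticoids and adrenaline act on several of these pathways in liver, and the series asks how adrenal hormones shape the liver's response to ozone, an oxidant gas.

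Recovered depth was 8372891 to 14096246 reads per library, so that a count of 0 allows a level of up to 3.14 to 6.02 normalized counts (3 reads). Hepatocyte markers, 8 in all, were high in all libraries. They summed to between 88093 RPM (reads scaled to a library total of 1000000) in ADREX ozone 82 and 202914 RPM in ADREX ozone 84. Of the 8 markers 1, Apoa1, rose in ADREX against SHAM by limma, in air and under ozone. There 3.53% and 12.5% of all tested genes were called, and counts among 8 markers are too few for a result. The part of hepatocyte content in the results was not tested. Kupffer cell markers, 5 in all and none at 0, had higher median sums in ADREX than in SHAM. The sum was 393 to 855 RPM in ADREX ozone (median 540.2), 392 to 821 in ADREX air (597), 349 to 479.5 in SHAM ozone (414) and 309 to 447 in SHAM air (367), so that the ranges overlapped. Of the 5 markers 1, Clec4f, rose in ADREX against SHAM under ozone by limma. In that comparison 12.5% of all tested genes were called in either direction, so 1 of 5 is no result about these markers. The part of Kupffer cells in the ADREX against SHAM results was not tested. Of 4 listed endothelial markers, 3 were in the table. Their sum was 67.2 to 90.0 RPM in ADREX ozone (median 86.2) and 72.5 to 194 in ADREX air (109). It was 59.9 to 119 in SHAM ozone (92.8) and 117 to 160 in SHAM air (138). None of the 3 passed by limma in any comparison, and the part of endothelial cells in the results was not tested. Markers of striated muscle reached at most 1.02 RPM and of brown fat at most 1.32 RPM, with Ucp1 and Ckm at 0 in all libraries. All 25 listed markers of neurons and oligodendrocytes were in the table, with at most 2 at 0 in a library, and their sum differed widely between libraries. The sum was 890 to 5104 RPM in ADREX ozone, 289 to 1245 in ADREX air, 83.7 to 3033 in SHAM ozone and 46.8 to 905 in SHAM air. Of the defining markers, Rbfox3 was at 0 in 7 libraries and Olig2 in 2. The highest sums were in ADREX ozone 82, SHAM ozone 18 and ADREX ozone 81, so results are also given without these 3 libraries or with the marker sum as a covariate where that matters. In whole liver, fewer cells of a type and less RNA per cell cannot be told apart.

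With ozone, 4 carriers rose in sham-operated rats, and under ozone 4 carriers were lower in ADREX than in SHAM. In SHAM, 4 of the 43 tested members were higher under ozone and 0 lower (9.3%; limma, Benjamini-Hochberg adjusted p under 0.05 over 12791 genes), against a background of 1.58% of all genes called and 0.946% called higher. The 4 were Slc25a15, Slc25a33, Slc25a29 and Slc25a32. In ADREX, 0 members passed for ozone against air by limma, where 0.125% of all genes were called. DESeq2 called 1 there (Slc25a4; background 4.46%) and edgeR 0 (background 0.383%), and 6 members were under 0.05 before adjustment (background 17.8%). Between ADREX and SHAM under ozone, 4 members were lower and 0 higher (9.3%), against 12.5% of all genes called and 6.48% called lower, a share of members near that background. They were Slc25a1, Slc25a5, Slc25a15 and Slc25a32. edgeR called the same 4 in each of these comparisons (background 1.38% with ozone in SHAM and 12.4% between ADREX and SHAM under ozone), and DESeq2 called 7 in each (background 4.19% and 17.1%). Before adjustment, 12 members were under 0.05 with ozone in SHAM (background 18.4%) and 13 between ADREX and SHAM under ozone (background 31.2%). Between ADREX and SHAM in air, 0 members passed by limma, against 3.53% of all genes. There 10 members were under 0.05 before adjustment (background 20.2%), and Slc25a33 was called by edgeR (background 2.96%) and DESeq2 (background 6.53%).

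For the difference between the ozone effects, ADREX minus SHAM, 0 members passed by limma where 0.109% of all genes were called. edgeR called 0 (background 0.188%), DESeq2 called Slc25a15 and Slc25a33 (background 1.94%), and 7 members were under 0.05 before adjustment (background 12.9%). The main test thus did not show for any carrier that its ozone effect differed between ADREX and SHAM. Over the 43 tested members, the median log2 change with ozone was 0.12 in ADREX and 0.30 in SHAM, beside 0.06 and 0.01 over all genes tested. The medians for ADREX against SHAM were 0.06 in air and −0.01 under ozone, beside 0.04 and 0.11 over all genes. With ozone, 32 of 43 members (74.4%) had a log2 change above 0 in SHAM, beside 51.0% of all genes. In ADREX 30 of 43 (69.8%) did, beside 56.6% of all genes. Groups did not overlap, with ozone higher, for 6 members in SHAM (14.0%, background 5.14%) and for 4 in ADREX (9.3%, background 6.99%). Under ozone, ADREX lay below SHAM without overlap for 7 members (16.3%, background 9.94%), and in air it lay above for 1, Slc25a37 (2.33%, background 4.24%).

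**Figure D1:**
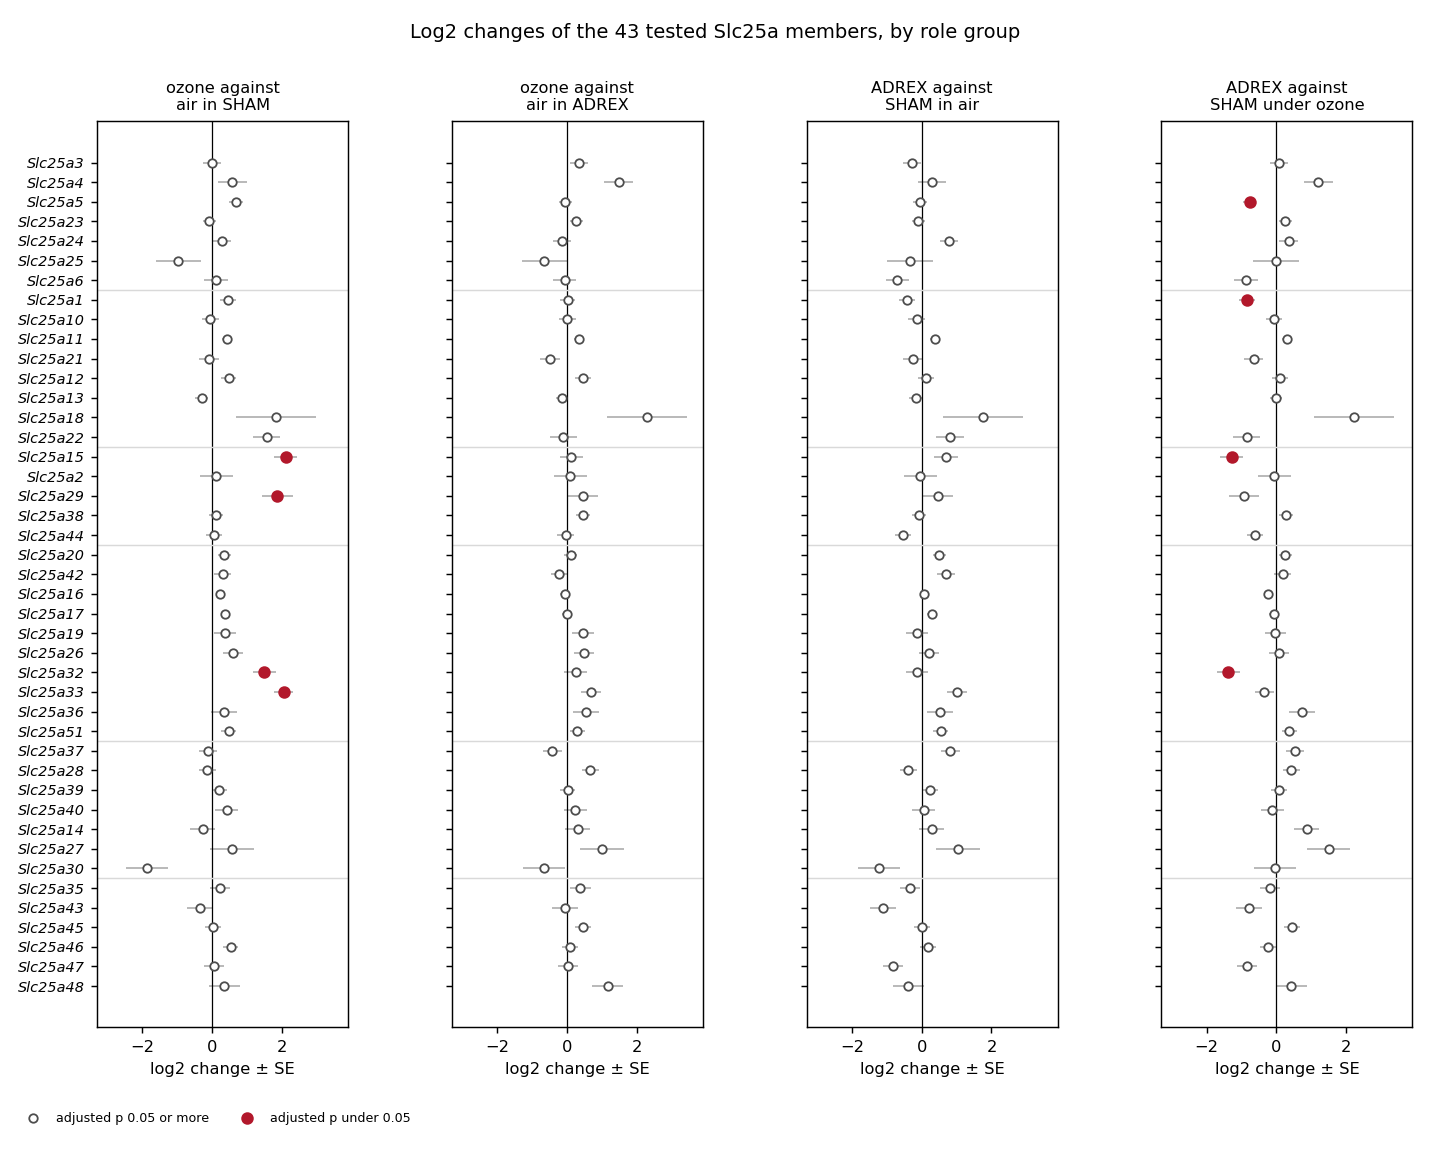
Log2 change (x axis, ± SE) of each of the 43 tested members (rows, by role group) in 4 comparisons, with filled red points for adjusted p under 0.05 in limma. The filled points are 4 to the right for ozone in SHAM, 4 to the left for ADREX against SHAM under ozone, and 0 in the other comparisons.

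Slc25a15 encodes the ornithine carrier, which brings ornithine into mitochondria and takes citrulline out, and so closes the urea cycle. Its levels in ADREX ozone libraries 81 to 84 were 17503, 23041, 27872 and 10155 normalized counts, and in ADREX air libraries 65 to 68 they were 20217, 13224, 9799 and 30940. In SHAM ozone libraries 17 to 20 they were 47095, 38017, 50523 and 44857, and in SHAM air libraries 1 to 4 they were 8941, 8390, 11188 and 13992. The SHAM ozone libraries were all above every other library, while the ADREX groups overlapped each other. The values 10155 in ADREX ozone and 13224 and 9799 in ADREX air lay within the range of SHAM air, and the other ADREX libraries lay above it. Group means were 19643 in ADREX ozone, 18545 in ADREX air and 10628 in SHAM air. Slc25a15 rose with ozone in SHAM by 2.11 ± 0.33 on the log2 scale, or 4.31-fold (adjusted p = 0.00611, limma). In ADREX its log2 change with ozone was 0.12 ± 0.33 (adjusted p = 0.890, limma).

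The difference of the 2 ozone effects on Slc25a15, ADREX minus SHAM, was −1.98 ± 0.47 on the log2 scale (adjusted p = 0.116, limma; 0.0778 by edgeR; 0.00175 by DESeq2). In air the log2 difference of Slc25a15, ADREX against SHAM, was 0.70 and did not pass in limma. Under ozone its level fell in ADREX against SHAM by 1.29 ± 0.33 on the log2 scale (adjusted p = 0.0205, limma). That call was lost without SHAM ozone 17 (adjusted p = 0.0548), SHAM ozone 19 (0.0514), SHAM ozone 20 (0.0531) or ADREX ozone 84 (0.0520) and in the fit that leaves out those 3 libraries with most neural markers (0.0869), while the log2 change stayed between −1.495 and −1.003 in all of them. The rise with ozone in SHAM passed in all 16 fits with 1 library left out. With the neural marker sum as a covariate it was 1.94 on the log2 scale (adjusted p = 0.0131, limma).

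Reads of Slc25a15 made up a large share of the family's reads, a share of reads and not of molecules, since transcript lengths were not used. Its share was 25.6 to 45.7% in ADREX ozone, 26.4 to 50.5% in ADREX air, 53.7 to 59.4% in SHAM ozone and 21.4 to 34.0% in SHAM air. All family members together took 0.261 to 0.436% of library reads in ADREX ozone, 0.247 to 0.418% in ADREX air, 0.524 to 0.568% in SHAM ozone and 0.245 to 0.311% in SHAM air. Without Slc25a15 the family summed to 1936 to 2367 RPM in ADREX ozone, 1821 to 2218 in ADREX air, 2252 to 2602 in SHAM ozone and 1615 to 2355 in SHAM air. The family's share did not overlap between SHAM ozone and SHAM air with Slc25a15 counted, and the sums without it did overlap.

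**Figure D2:**
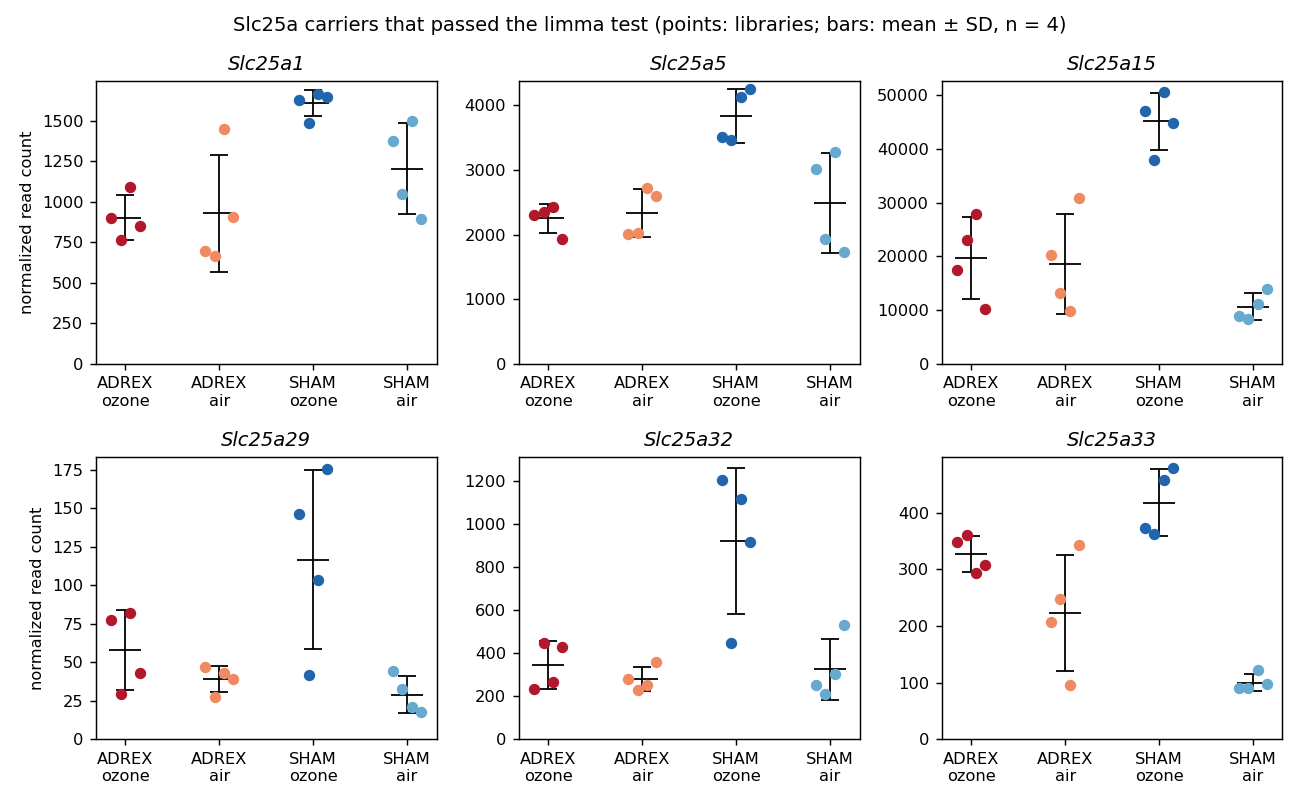
Normalized read count (y axis, from 0) of the 6 members that passed limma in a comparison, in ADREX ozone, ADREX air, SHAM ozone and SHAM air, with a point per library and bars for mean ± SD (n = 4). Slc25a15 reaches 38017 to 50523 in SHAM ozone, above all other libraries, whereas Slc25a29 and Slc25a32 have 1 SHAM ozone library within the range of SHAM air.

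Slc25a33, which carries pyrimidine nucleotides into mitochondria in human cells, had 348, 360, 294 and 308 normalized counts in ADREX ozone and 207, 248, 95.3 and 344 in ADREX air. In SHAM ozone it had 373, 362, 457 and 479, and in SHAM air 90.8, 90.1, 123 and 98.3. SHAM ozone was the highest group and did not overlap any other by normalized count. SHAM air was the lowest, and 1 ADREX air library, number 67, lay within the SHAM air range. The gap to ADREX ozone was narrow, with 362 in SHAM ozone 18 and 360 in ADREX ozone 82. In RPM the 2 ozone groups overlapped, with 27.1 and 29.1 in these libraries. Slc25a33 rose with ozone in SHAM by 2.05 ± 0.28 on the log2 scale, or 4.13-fold (adjusted p = 0.00214, limma), and passed in all 16 fits with 1 library left out. In ADREX the log2 change with ozone was 0.69 ± 0.28 (adjusted p = 0.225, limma).

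In air, ADREX against SHAM differed for Slc25a33 by 1.02 ± 0.28 on the log2 scale, which missed the threshold in limma (adjusted p = 0.0542) and passed in edgeR (0.0296) and DESeq2 (0.00239). It also passed in limma without ADREX air 67 (adjusted p = 0.000446) or without SHAM air 3 (0.0371), and with the neural covariate the adjusted p was 0.166. The difference of its ozone effects, ADREX minus SHAM, was −1.36 ± 0.39 on the log2 scale (adjusted p = 0.171, limma; 0.0851 by edgeR; 0.00698 by DESeq2) and passed in limma without ADREX air 67 (0.0162). Under ozone, ADREX lay below SHAM in all libraries by normalized count, though not in RPM, with a log2 difference of −0.34 ± 0.28 (adjusted p = 0.414, limma). Slc25a36, the other carrier of pyrimidine nucleotides, had log2 changes of 0.55 in ADREX and 0.33 in SHAM with ozone and passed in no comparison.

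Slc25a29 carries basic amino acids such as arginine and lysine. It had 146, 41.6, 103 and 176 normalized counts in SHAM ozone and 44.6, 32.4, 21.3 and 18.1 in SHAM air. The SHAM ozone library 18, at 41.6, lay within the range of SHAM air and was the SHAM ozone library with the highest neural marker sum. Slc25a29 rose with ozone in SHAM by 1.87 ± 0.43 on the log2 scale (adjusted p = 0.0396, limma). In ADREX it had 77.8, 29.3, 82.3 and 43.2 normalized counts with ozone and 47.1, 27.5, 43.2 and 39.1 with air, groups that overlapped, and a log2 change of 0.46 ± 0.43 (adjusted p = 0.614, limma). The call in SHAM was lost without SHAM ozone 17 (adjusted p = 0.143), SHAM ozone 19 (0.0637), SHAM ozone 20 (0.143), SHAM air 2 (0.0980), SHAM air 4 (0.126) or ADREX air 65 (0.0562). It was also lost without the filter on low values (0.0630) and in a fit of the SHAM groups alone (0.0744). Without SHAM ozone 18 the log2 change was 2.30 (adjusted p = 0.00892), the highest of the fits with 1 library left out.

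Slc25a32 is described as a carrier of folate and of flavin adenine dinucleotide. Its levels were 234, 449, 265 and 430 normalized counts in ADREX ozone and 281, 230, 255 and 358 in ADREX air. They were 1203, 448, 1117 and 917 in SHAM ozone and 254, 209, 305 and 532 in SHAM air. All SHAM ozone libraries but number 18 were above every other library. Slc25a32 rose with ozone in SHAM by 1.50 ± 0.33 on the log2 scale (adjusted p = 0.0310, limma) and had a log2 change of 0.26 ± 0.33 in ADREX (adjusted p = 0.732, limma). The call in SHAM was lost without SHAM ozone 17 (adjusted p = 0.128), SHAM ozone 19 (0.0635), SHAM ozone 20 (0.110), SHAM air 1 (0.0671) or SHAM air 2 (0.121), and in a fit of the SHAM groups alone (0.0676).

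Under ozone, Slc25a32 fell in ADREX against SHAM by 1.38 ± 0.33 on the log2 scale (adjusted p = 0.0132, limma). This call passed in all 16 fits with 1 library left out and in all 10 other alternatives, among them the fit lacking the 3 libraries with most neural markers (−1.66, adjusted p = 0.0182). The comparisons of SHAM ozone with SHAM air and of ADREX ozone with SHAM ozone share the SHAM ozone libraries, so that Slc25a15 and Slc25a32 pass in both is not independent. The difference of the ozone effects on Slc25a32, ADREX minus SHAM, was −1.24 ± 0.46 on the log2 scale (adjusted p = 0.283, limma).

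With the neural marker sum as a covariate, the other calls with ozone in SHAM were 1.91 for Slc25a33 (adjusted p = 0.00609, limma), 2.35 for Slc25a29 (0.00609) and 1.55 for Slc25a32 (0.0415) on the log2 scale. The 4 calls between ADREX and SHAM under ozone were −1.32 for Slc25a32 (adjusted p = 0.0321, limma), −1.47 for Slc25a15 (0.0203), −0.84 for Slc25a5 (0.0247) and −0.84 for Slc25a1 (0.0449) on that scale. All 8 calls thus passed with this covariate.

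**Figure D3:**
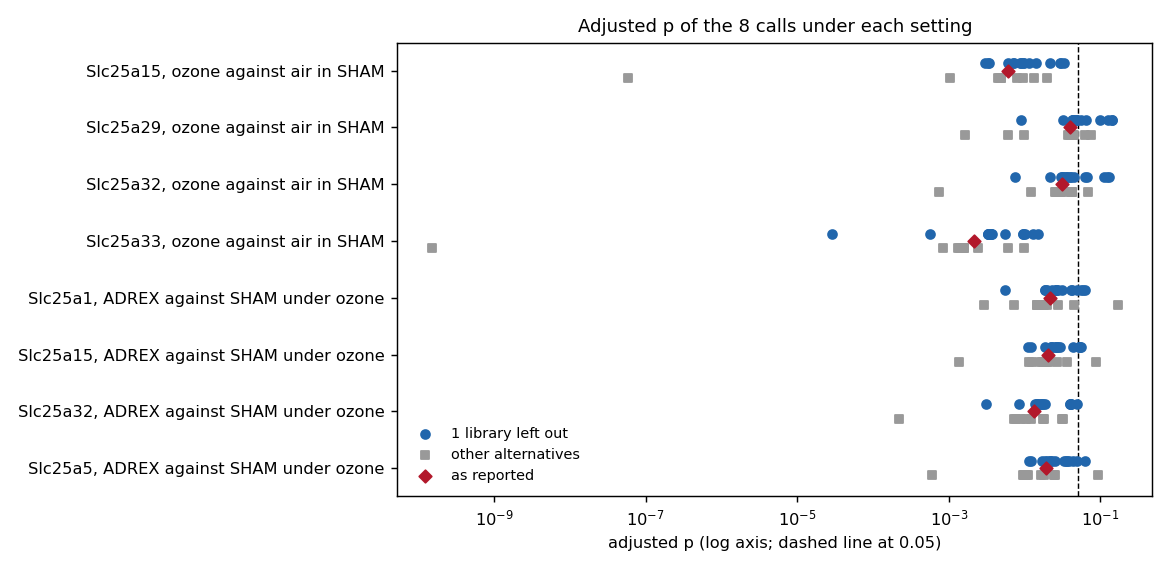
Adjusted p (x axis, log scale, dashed line at 0.05) of each of the 8 calls (rows), as reported (red diamonds), with 1 library left out (blue circles) and under other alternatives (grey squares). For Slc25a15 and Slc25a33 with ozone in SHAM and for Slc25a32 between ADREX and SHAM under ozone all points lie left of the line, and the other 5 rows cross it.

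Glucocorticoids work through known DNA motifs, and so does cyclic AMP, a messenger through which glucagon and adrenaline can act. The bases upstream of the start of 3 of the carriers that rose with ozone in SHAM are therefore shown. They are the 250 bases before the annotated start in RefSeq (assembly GRCr8), given 5′ to 3′ on the gene's strand: chr16:76336620-76336869 (plus strand) for Slc25a15, chr5:165502974-165503223 (minus strand) for Slc25a33 and chr6:133517198-133517447 (minus strand) for Slc25a29. Capitals mark matches to the motifs named after the sequences.
Slc25a15: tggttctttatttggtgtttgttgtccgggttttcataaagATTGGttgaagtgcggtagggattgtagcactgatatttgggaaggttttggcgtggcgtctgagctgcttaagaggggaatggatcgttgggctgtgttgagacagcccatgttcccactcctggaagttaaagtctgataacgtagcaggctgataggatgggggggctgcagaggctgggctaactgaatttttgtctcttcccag
Slc25a33: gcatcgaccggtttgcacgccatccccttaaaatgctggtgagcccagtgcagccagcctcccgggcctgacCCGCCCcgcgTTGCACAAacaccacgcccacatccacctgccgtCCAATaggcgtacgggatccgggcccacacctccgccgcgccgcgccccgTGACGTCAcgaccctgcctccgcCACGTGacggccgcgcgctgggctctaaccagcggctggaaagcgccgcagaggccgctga
Slc25a29: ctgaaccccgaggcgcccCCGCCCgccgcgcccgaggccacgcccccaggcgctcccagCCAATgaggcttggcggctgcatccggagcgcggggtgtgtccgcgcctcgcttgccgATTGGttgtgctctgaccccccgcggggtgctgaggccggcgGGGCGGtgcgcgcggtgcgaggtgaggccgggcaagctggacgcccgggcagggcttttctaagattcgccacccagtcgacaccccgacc

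Motifs were searched on both strands, and the share of all 33469 RefSeq windows of this length that hold each is given. They were AGAACA (the glucocorticoid receptor motif for a single receptor molecule, 17.5%), TGACGTCA (the cyclic AMP response element, 1.59%), CACGTG (the E-box, 5.59%), TTGCNNAA (a motif of the C/EBP type, 9.22%), CCAAT (34.0%) and GGGCGG (the GC box, 30.5%). The Slc25a33 window held TGACGTCA 84 bases before the start, CACGTG 61 bases before it, TTGCACAA 168 bases before it, 1 CCAAT and 1 GC box. The Slc25a29 window held 2 CCAAT and 2 GC boxes, and the Slc25a15 window held 1 CCAAT, 209 bases before the start. AGAACA was in none of these 3 windows. Whether transcription in liver begins at the annotated starts, that of Slc25a15 among them, was not tested. The windows may therefore not be the promoters used, and a motif missing from a window may lie elsewhere. The windows of Slc25a33 and Slc25a29 were rich in G and C (70.0% and 74.8%), and that of Slc25a15 less so (48.8%). Of the 40 members with a window, 2 held TGACGTCA, Slc25a33 and Slc25a25, and 4 held AGAACA, Slc25a1, Slc25a10, Slc25a22 and Slc25a43.

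The group of amino acid carriers had 5 members, of which 2 rose with ozone in SHAM (Slc25a15 and Slc25a29) and 1 fell in ADREX against SHAM under ozone (Slc25a15). Over all tested genes, limma called 0.946% higher in the first comparison and 6.48% lower in the second. Counts among 5 carriers are too few for a result about the group. The other members did not pass in any comparison. Slc25a38, a glycine carrier used in heme synthesis, averaged 403 ± 106 normalized counts in ADREX ozone, 289 ± 65.7 in ADREX air, 330 ± 72.1 in SHAM ozone and 302 ± 22.3 in SHAM air (SD, n = 4 each). Slc25a44, which carries branched-chain amino acids in mouse brown fat, averaged 73.3 ± 20.1 normalized counts in ADREX ozone and 111.6 ± 16.7 in SHAM ozone, a log2 difference of −0.62 ± 0.23 (adjusted p = 0.0867, limma). Slc25a2, the second ornithine carrier in humans, was just inside the filter with a mean of 15.4 and had log2 changes between −0.07 and 0.12 in the 4 comparisons of groups.

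Among the 10 carriers of fatty acids, cofactors and nucleotides, 2 rose with ozone in SHAM (Slc25a33 and Slc25a32) and 1 fell in ADREX against SHAM under ozone (Slc25a32). All 10 had a log2 change above 0 with ozone in SHAM, from 0.23 to 2.05, beside 51.0% of all tested genes, though 8 did not pass. Over all tested genes, limma called 0.946% higher with ozone in SHAM and 6.48% lower in ADREX against SHAM under ozone. Counts among 10 carriers are too few for a result about the group. Slc25a20, which takes acylcarnitines into mitochondria for fatty acid oxidation, averaged 2216 ± 345 normalized counts in ADREX ozone, 2077 ± 414 in ADREX air, 1855 ± 275 in SHAM ozone and 1471 ± 332 in SHAM air (SD, n = 4 each). Slc25a51, the carrier of NAD, averaged 1096 ± 278 normalized counts in ADREX ozone, 886 ± 209 in ADREX air, 830.5 ± 87.8 in SHAM ozone and 608 ± 142 in SHAM air. For both, the ADREX means were above the SHAM mean of the same exposure, and no comparison passed. Slc25a16 lay below SHAM ozone in every ADREX ozone library by normalized count, with a log2 difference of −0.23 ± 0.12 (adjusted p = 0.207, limma, and 0.0256 by DESeq2). The groups nearly touched, at 1166 in ADREX ozone 82 and 1168 in SHAM ozone 20. In RPM they overlapped, with 94.2 and 78.7 in these libraries.

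Slc25a5 encodes an ADP/ATP carrier, which sends ATP out of mitochondria in exchange for ADP. Its levels were 2306, 2347, 2431 and 1929 normalized counts in ADREX ozone and 3506, 3457, 4135 and 4247 in SHAM ozone. The ADREX ozone libraries were all below the SHAM ozone libraries. Slc25a5 fell in ADREX against SHAM under ozone by 0.77 ± 0.20 on the log2 scale (adjusted p = 0.0189, limma). The call was lost without SHAM ozone 20 (adjusted p = 0.0618) and in the fit lacking the 3 libraries with most neural markers (0.0930; log2 difference −0.87). In air it had 2010, 2019, 2724 and 2594 normalized counts in ADREX and 3015, 1924, 3273 and 1732 in SHAM, groups that overlapped, with a log2 difference of −0.05 ± 0.20 (adjusted p = 0.908, limma). The difference between these effects was −0.72 ± 0.28 on the log2 scale (adjusted p = 0.294, limma). With ozone in SHAM its log2 change was 0.67 ± 0.20 (adjusted p = 0.0898, limma; 0.0384 by DESeq2).

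Slc25a4, the ADP/ATP carrier of heart and skeletal muscle, was named after its values were seen. It had 287, 539, 170 and 166 normalized counts in ADREX ozone and 121, 76.3, 65.5 and 114 in ADREX air. It had 90.6, 226, 97.9 and 75.2 in SHAM ozone and 53.6, 58.9, 140 and 68.2 in SHAM air. The ADREX groups did not overlap, and the highest library of each exposed group, ADREX ozone 82 and SHAM ozone 18, was also the one richest in neural markers in its group. The log2 change of Slc25a4 with ozone in ADREX was 1.49 ± 0.41 (adjusted p = 0.130, limma; 0.0148 by DESeq2), and 0.83 with the neural marker sum as a covariate (adjusted p = 0.116, limma). Striated muscle markers summed to at most 1.02 RPM in any library. Reads of Slc25a5 per read of Slc25a4 were 4.35 to 14.3 in ADREX ozone, 16.6 to 41.6 in ADREX air, 15.3 to 56.5 in SHAM ozone and 23.4 to 56.3 in SHAM air, a ratio of reads that was lower in every ADREX ozone library than in any other.

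Of the 9 carriers of ADP, ATP and phosphate, 7 were tested and the fall of Slc25a5 was the only call by limma in the 5 comparisons. Under ozone, limma called 6.48% of all tested genes lower in ADREX than in SHAM. Slc25a3, the phosphate carrier that supplies ATP synthesis, averaged 3183 ± 1396 normalized counts in ADREX ozone, 2423 ± 617 in ADREX air, 2842 ± 226 in SHAM ozone and 2960 ± 889 in SHAM air (SD, n = 4 each). Slc25a23, a carrier that exchanges ATP-magnesium for phosphate under the control of calcium, had log2 changes between −0.10 and 0.26 in the 4 comparisons of groups. Slc25a25, a carrier of the same kind, varied widely within every group. It had 578, 3452, 3314 and 566 normalized counts in ADREX ozone, 2475, 4310, 774 and 2730 in ADREX air, 649, 1735, 2746 and 1246 in SHAM ozone and 1893, 1952, 5610 and 2739 in SHAM air. All 4 groups overlapped, and the standard error of its log2 changes was 0.66. Slc25a6, an ADP/ATP carrier symbol, averaged 50.8 ± 21.9 normalized counts in ADREX ozone and 89.2 ± 14.9 in SHAM ozone, a log2 difference of −0.88 ± 0.34 (adjusted p = 0.0980, limma).

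**Figure D4:**
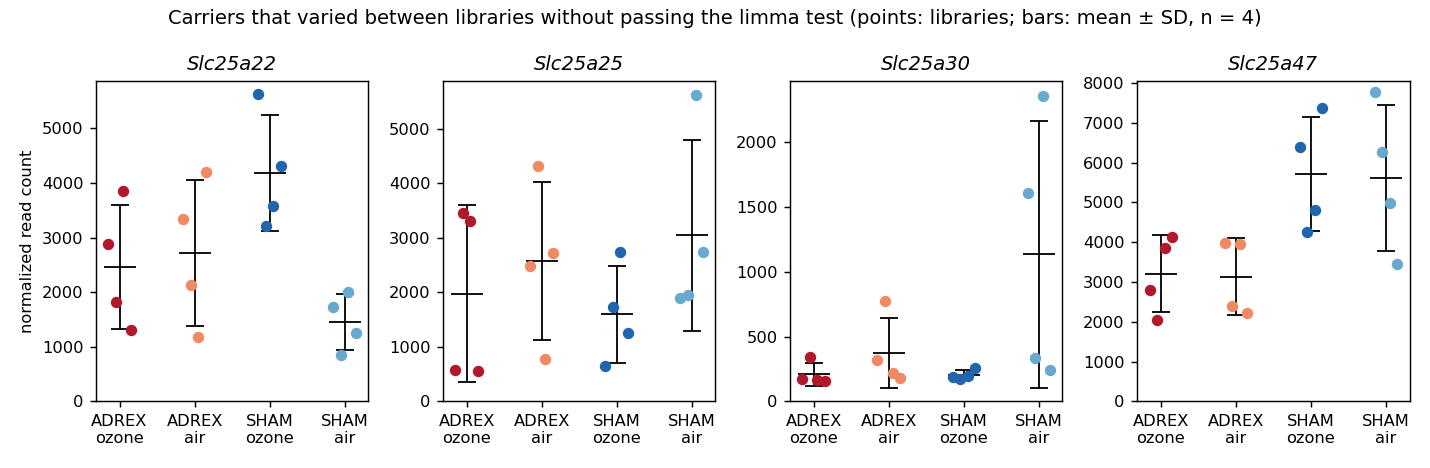
Normalized read count (y axis, from 0) of 4 members that varied between libraries and passed in no comparison by limma, in ADREX ozone, ADREX air, SHAM ozone and SHAM air, with a point per library and bars for mean ± SD (n = 4). Slc25a22 is 3220 to 5626 in SHAM ozone and 853 to 2009 in SHAM air, Slc25a30 has 2 SHAM air libraries at 1609 and 2361, and Slc25a25 spreads from 566 to 5610.

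Slc25a1, the citrate carrier that exports citrate for fatty acid and sterol synthesis, had 902, 766, 1088 and 851 normalized counts in ADREX ozone and 1628, 1489, 1667 and 1647 in SHAM ozone. The groups did not overlap, and the SHAM ozone libraries lay close together. Slc25a1 fell in ADREX against SHAM under ozone by 0.84 ± 0.22 on the log2 scale (adjusted p = 0.0215, limma). The call was lost without SHAM ozone 17 (adjusted p = 0.0550), SHAM ozone 20 (0.0586) or ADREX ozone 82 (0.0620), and in the fit lacking the 3 libraries with most neural markers (0.171; log2 difference −0.78). In air it had 697, 665, 1446 and 907 normalized counts in ADREX and 1374, 1046, 1499 and 895 in SHAM, which overlapped, with a log2 difference of −0.42 ± 0.22 (adjusted p = 0.300, limma).

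Slc25a22, a glutamate carrier, had 5626, 3220, 3574 and 4311 normalized counts in SHAM ozone and 1726, 853, 2009 and 1254 in SHAM air. The groups did not overlap, and the log2 change with ozone was 1.56 ± 0.39, which missed the threshold in limma (adjusted p = 0.0559) and edgeR (0.0624) and passed in DESeq2 (0.00353). In ADREX it had 2877, 1814, 3853 and 1298 normalized counts with ozone and 3342, 2133, 1179 and 4204 with air, a full overlap, with a log2 change of −0.11 ± 0.39 (adjusted p = 0.920, limma). The difference of the effects was −1.67 ± 0.55 on the log2 scale (adjusted p = 0.230, limma). The log2 change in SHAM passed in limma without SHAM air 3 (adjusted p = 0.0288), ADREX air 67 (0.0298), ADREX air 68 (0.0482) or ADREX ozone 84 (0.0411). Slc25a18, the other glutamate carrier, was low, at 27.3 to 91.1 normalized counts in ADREX ozone, 4.24 to 25.7 in ADREX air, 0 to 44.0 in SHAM ozone and 0 to 28.8 in SHAM air. It was at 0 in 1 SHAM ozone and 2 SHAM air libraries, and no comparison passed (adjusted p = 0.305 with ozone in ADREX, limma).

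Of the 8 carriers of dicarboxylates, tricarboxylates, aspartate and glutamate, the fall of Slc25a1 was the only limma call. Over all tested genes, 6.48% were called lower in that comparison, ADREX against SHAM under ozone. Slc25a13, the aspartate/glutamate carrier of liver known as citrin, which feeds aspartate to the urea cycle and serves the malate-aspartate shuttle, averaged 2027 ± 363 normalized counts in ADREX ozone, 2221 ± 318 in ADREX air, 2019 ± 218 in SHAM ozone and 2526 ± 480 in SHAM air (SD, n = 4 each). Reads of Slc25a13 per read of Slc25a12, the form prominent in brain and muscle, were 4.32 to 11.5 in ADREX ozone, 9.81 to 15.5 in ADREX air, 7.59 to 10.8 in SHAM ozone and 12.7 to 20.05 in SHAM air. The ratio was lower in every SHAM ozone library than in any SHAM air library. Among the other pairs with ratios, Slc25a36 to Slc25a33 and Slc25a15 to Slc25a2 were also apart between these groups. Slc25a5 to Slc25a4, Slc25a28 to Slc25a37, Slc25a39 to Slc25a40 and Slc25a22 to Slc25a18 overlapped. For none of these pairs was the share of such separations over all gene pairs computed. Slc25a10, the dicarboxylate carrier, had log2 changes between −0.14 and 0.02 in the 4 comparisons of groups. Slc25a11, the oxoglutarate/malate carrier of the malate-aspartate shuttle, was 713 to 879.5 normalized counts in SHAM ozone and 496 to 645 in SHAM air, a log2 change of 0.42 ± 0.14 that did not pass (adjusted p = 0.144, limma).

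None of the 7 carriers of iron, glutathione or protons passed in limma in the 5 comparisons, and the number with an unadjusted p under 0.05 was 1 with ozone in SHAM, 1 with ozone in ADREX, 1 in the difference of these effects, 1 in air and 2 under ozone. Over all tested genes these shares were 18.4% with ozone in SHAM, 17.8% with ozone in ADREX, 12.9% in the difference, 20.2% in air and 31.2% under ozone, so these counts are near the background. Slc25a30, related to the uncoupling proteins, had 192, 175, 197 and 257 normalized counts in SHAM ozone and 1609, 332, 2361 and 241 in SHAM air. The SHAM air group split into 2 high and 2 low libraries, and the lowest, SHAM air 4, lay within the SHAM ozone range. Its log2 change was −1.87 ± 0.60 (adjusted p = 0.122, limma; 0.0624 by edgeR; 0.00139 by DESeq2). Slc25a39, a carrier linked to glutathione import, had log2 changes between 0.03 and 0.24 in the 4 comparisons of groups. The mitoferrins Slc25a28 and Slc25a37 bring iron into mitochondria. Slc25a37 had 75.3, 81.5, 74.5 and 92.9 normalized counts in ADREX air and 59.5, 45.6, 47.5 and 32.1 in SHAM air, groups that did not overlap, with a log2 difference of 0.83 ± 0.26 (adjusted p = 0.0954, limma). Reads of Slc25a28 per read of Slc25a37 were 1.23 to 2.02 in ADREX ozone, 0.571 to 1.18 in ADREX air, 1.19 to 2.82 in SHAM ozone and 1.58 to 2.16 in SHAM air and lower in every ADREX air library than in any other.

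Slc25a27, an uncoupling protein of the brain, was named after its values were seen. It had 70.9, 107, 26.3 and 36.0 normalized counts in ADREX ozone and 15.1, 64.8, 13.1 and 7.37 in SHAM ozone, which overlapped. Its highest libraries, ADREX ozone 82 and 81 and SHAM ozone 18, were the 3 richest in neural markers. The log2 difference under ozone was 1.49 ± 0.63 (adjusted p = 0.122, limma), and 0.59 with the marker sum as a covariate (adjusted p = 0.446, limma). Of carriers of the family that go by other symbols, Ucp1 was at 0 in all libraries and Ucp3 reached at most 2.45 normalized counts, both below the limit that a count of 0 allows, and Ucp2 had log2 changes between 0.12 and 0.47 and passed in no comparison.

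**Figure D5:**
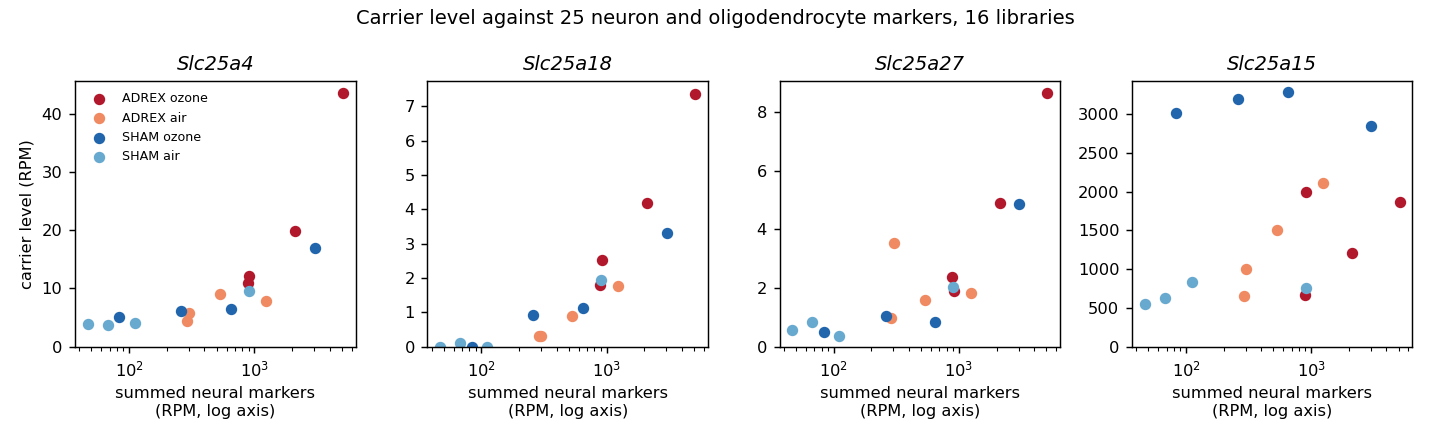
Level of 4 carriers (y axis, RPM, from 0) against the sum of 25 markers of neurons and oligodendrocytes (x axis, RPM, log scale), with a point per library coloured by group. The libraries with the highest Slc25a4, Slc25a18 and Slc25a27 also have the highest marker sum, 5104 RPM in ADREX ozone 82, whereas the SHAM ozone points lie highest for Slc25a15 at sums between 83.7 and 3033 RPM.

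Of the 8 remaining carriers, 6 were tested and none passed in limma, with 1 member at an unadjusted p under 0.05 with ozone in SHAM, 1 with ozone in ADREX, 0 in the difference of these effects, 2 in air and 1 under ozone. Against the shares over all genes of 18.4%, 17.8%, 12.9%, 20.2% and 31.2% in the same order, counts among 6 carriers are no result about them. Slc25a47, a carrier found mainly in liver, had 2801, 2034, 3865 and 4136 normalized counts in ADREX ozone and 6399, 4266, 4797 and 7364 in SHAM ozone. The groups did not overlap, and the log2 difference was −0.85 ± 0.29 (adjusted p = 0.0643, limma; 0.0250 by DESeq2), or −0.52 with the neural marker sum as a covariate. In air it had 3971, 2388, 3954 and 2226 normalized counts in ADREX and 7762, 6264, 4975 and 3451 in SHAM, which overlapped, with a log2 difference of −0.83 ± 0.29 (adjusted p = 0.128, limma). Slc25a46, an outer membrane protein of the family that takes part in mitochondrial fission and lipid transfer, averaged 1017 ± 108 normalized counts in SHAM ozone and 708 ± 98.1 in SHAM air, a log2 change of 0.53 ± 0.22 (adjusted p = 0.230, limma). Slc25a43 averaged 68.6 ± 18.4 normalized counts in ADREX ozone and 119 ± 39.0 in SHAM ozone, a log2 difference of −0.78 ± 0.37 (adjusted p = 0.161, limma). In air it averaged 75.5 ± 35.7 normalized counts in ADREX and 159 ± 57.2 in SHAM, a log2 difference of −1.10 ± 0.37 (adjusted p = 0.116, limma; 0.0518 by DESeq2), and these groups overlapped.

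Of the 4 members under the filter, Slc25a34 was just outside it with a mean of 14.3 normalized counts. It had 25.2, 18.9, 17.6 and 17.3 in ADREX ozone, 18.8, 5.30, 1.49 and 12.2 in ADREX air, 16.6, 6.12, 27.2 and 47.2 in SHAM ozone and 4.46, 6.01, 3.75 and 0 in SHAM air. Each SHAM ozone library was above each SHAM air library, but SHAM ozone 18 (6.12) and SHAM air 2 (6.01) both held 5 reads. Over all tested genes, 5.14% had SHAM ozone above SHAM air without overlap. Slc25a34 was outside the main test, and its values from the fit without a filter are not given here. Slc25a54 was 0 to 10.5 normalized counts (mean 4.87), Slc25a41 had 1 read in 1 library, and Slc25a31, an ADP/ATP carrier of the testis, was at 0 in all 16 libraries. RefSeq lists pseudogenes for 13 members, among them 9 for Slc25a5, 2 for Slc25a3 and 1 each for Slc25a15, Slc25a33 and Slc25a4, so counts of these genes are uncertain where the authors' counting could split reads between copies.

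Genes that work beside the carriers were listed as companions, and 39 of them were tested. They were enzymes, import proteins, regulators of mitochondrial genes and other transporters. With ozone in SHAM, 2 rose, Got1 (cytosolic aspartate aminotransferase of the malate-aspartate shuttle, 2.51 ± 0.40 on the log2 scale, adjusted p = 0.00611, limma) and Crat (carnitine acetyltransferase, 1.41 ± 0.32, adjusted p = 0.0378, limma), and 0 fell. With ozone in ADREX, and in the difference of the ozone effects, 0 passed. In ADREX against SHAM under ozone 8 fell and 1 rose, and in air 4 fell and 0 rose. Over all tested genes the share called by limma in either direction was 1.58% with ozone in SHAM, 12.5% in ADREX against SHAM under ozone (6.48% lower) and 3.53% in air. The 5 genes listed around citrate next to Slc25a1 held 3 of the falls under ozone (Acly, Acaca and Fasn) and all 4 in air (these and Cs). For Slc25a1 the difference between the ADREX effects under ozone and in air was −0.43 ± 0.31 on the log2 scale (adjusted p = 0.569, limma). Of the 3 mitochondrial urea cycle enzymes next to Slc25a15, Cps1, which makes carbamoyl phosphate, fell in ADREX against SHAM under ozone by 1.09 ± 0.23 on the log2 scale (adjusted p = 0.00691, limma). Cps1 had a log2 change of 0.35 ± 0.23 with ozone in SHAM (adjusted p = 0.418, limma), where Slc25a15 rose. Of 4 enzymes of the malate-aspartate shuttle, Mdh1 fell in ADREX against SHAM under ozone by 1.31 ± 0.32 on the log2 scale (adjusted p = 0.0163, limma). Of the 5 genes of the carnitine shuttle, Cpt2 fell under ozone by 0.79 ± 0.23 (adjusted p = 0.0326, limma). Of 8 regulators of mitochondrial genes, Gabpa fell by 0.83 ± 0.15 (adjusted p = 0.00278, limma) and Ppargc1b by 1.57 ± 0.45 on the log2 scale (adjusted p = 0.0331, limma) in the same comparison. Of the 9 tested proteins that import carriers into the inner membrane, Timm10b rose there by 0.79 ± 0.19 (adjusted p = 0.0159, limma).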

How the data were processed

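Liver mRNA was sequenced in 16 libraries, 4 per group. Per the labels' protocols, a Wafergen PrepX kit served for the mRNA libraries and an Illumina NextSeq 500 for sequencing. The submitters' processing notes name Partek, DESeq2 and the genome build rn6. Not given in the sources used here are their versions, the aligner, the annotation and the counting with its strandedness.

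The values deposited by the authors are a signal: read counts divided by 1 factor per library, so that each value is a whole multiple of what 1 read is worth. Whole reads were recovered for 100% of values within 0.01 (largest deviation 0.000537), and no column was left out. The limit that a count of 0 allows covers counting error only.

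Deposited values were transformed as log2(value + 1), so changes of low genes are understated. A gene was tested where its mean reached 14.7, which is 1 per 1000000 of the median column total, and 12791 genes were. A two-sided moderated test (limma 3.58.1 with a mean-expression trend, under R 4.3.3) used 4 group means over all 16 libraries (residual degrees of freedom 12, prior 4.42). P-values were adjusted by Benjamini-Hochberg over the tested genes, with 0.05 as the threshold. The 5 comparisons were ozone against air in each surgery group, their difference, and ADREX against SHAM in each exposure. Count tests on the recovered reads were alternatives. For ozone against air, edgeR 4.0.16 called 49 genes in ADREX, 176 in SHAM and 24 for their difference; for surgery it called 378 in air and 1585 under ozone. In that order limma called 16, 202, 14, 451 and 1601, and DESeq2 1.42.0 called 570, 536, 248, 835 and 2193. Other alternatives were a pseudocount of 10, no filter, a filter at 73.4, TMM, median of ratios, the groups of a comparison alone, the summed neural markers as a covariate, leaving out the 3 libraries richest in them, and leaving out each library in turn. The fits were tested on simulated data.

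By rule, members that passed are given by library, and up to 3 further members per role group by level; members named outside it, such as Slc25a4, Slc25a6, Slc25a11, Slc25a12, Slc25a18, Slc25a27, Slc25a36 and Slc25a37, were chosen after their values were seen. Members and lists were chosen with earlier results of these data known. Windows before the annotated starts and pseudogene names are from RefSeq (GRCr8). Slc25a6 and Slc25a54 were put in a role group after the table was opened.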

Additional observations from a re-analysis of the deposited data

Results flagged for a closer look

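Among 172 sets of 4 libraries (43 members in 4 groups), 14 held a library far from the other 3 by Dixon's criterion at 95%, where chance flags about 1 in 20. Values are normalized counts. Slc25a18 was 28.8 in SHAM air 3, against 0 to 1.49 in the other 3 libraries, and Slc25a4 was 140.002 in that library, against 53.6 to 68.2. Slc25a4 was 226 in SHAM ozone 18, against 75.2 to 97.9, and Slc25a27 was 64.8 in that library, against 7.37 to 15.1. SHAM air 3 and SHAM ozone 18 had the highest neural marker sums of their groups, 905 and 3033 RPM; the part of neural cells in these values was not tested. Slc25a30 was 339 in ADREX ozone 82, against 158 to 174, in the library with the highest sum of all.

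Slc25a23 was 1652 in SHAM air 2, against 969 to 1078, and Slc25a36 was 12.0 in the same library, against 26.3 to 28.1. Slc25a36 was 39.3 in SHAM ozone 17, against 24.5 to 26.1, and Slc25a43 was 177 in SHAM ozone 19, against 92.9 to 104. In ADREX ozone 84, Slc25a3 was 5275, against 2409 to 2538, and Slc25a48 was 138, against 28.3 to 46.9. In ADREX air, Slc25a48 was 16.5 in library 65, against 24.4 to 25.3, Slc25a40 was 40.2 in library 67, against 44.7 to 45.5, and Slc25a38 was 388 in library 68, against 256 to 257. No member's ozone effect differed between ADREX and SHAM by the main test.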

How the results depend on the processing

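No paired analysis was possible because the labels' replicate numbers differ between all 4 groups. Over all alternatives that gave a value, 16 log2 changes were compared, of Slc25a1, Slc25a5, Slc25a15, Slc25a22, Slc25a29, Slc25a32 and Slc25a33, and none of these changed direction. The other log2 changes reported were not compared across every alternative. By DESeq2, 1 member was called for ozone in ADREX (Slc25a4), 7 for ozone in SHAM (adding Slc25a5, Slc25a22 and Slc25a30), 2 for the difference of the ozone effects (Slc25a15 and Slc25a33), 1 for ADREX against SHAM in air (Slc25a33) and 7 under ozone (adding Slc25a4, Slc25a16 and Slc25a47). In air, 1 member, Slc25a33, was also called by edgeR, with the stricter filter and with median of ratios scaling. With the 3 libraries of highest neural sum left out, which leaves fewer libraries, 1 member (Slc25a32) was called between ADREX and SHAM under ozone. With 1 library left out, the number of members called was 0 for ozone in ADREX, 2 to 6 for ozone in SHAM, and ranged from 0 to 1 for the difference, 0 to 3 for ADREX against SHAM in air and 1 to 8 under ozone. With ozone in SHAM it was 2 when SHAM air 2 or any of SHAM ozone 17, 19 and 20 was left out. It was 3 in air without SHAM air 3 (Slc25a20, Slc25a24 and Slc25a33) or ADREX air 67 (Slc25a1, Slc25a33 and Slc25a42), and 1 (Slc25a43) without SHAM air 1. Under ozone it was 8 when SHAM ozone 18 was left out, 2 for SHAM ozone 17 and 1 for SHAM ozone 20. Over all genes, the fits with 1 library left out called 0 to 50 genes for ozone in ADREX, 38 to 658 for ozone in SHAM, 3 to 33 for their difference, 194 to 1004 in air and 787 to 1848 under ozone, beside 16, 202, 14, 451 and 1601. With those 3 libraries left out they were 1 for ozone in ADREX, 107 for ozone in SHAM and 479 under ozone. For ozone in ADREX they were 26 with a pseudocount of 10, 36 without a filter and 2 in the groups alone; in air they were 212 in the groups alone and 194 with the neural covariate, and for the difference 22 with that covariate. The median log2 difference of all genes under ozone was 0.11 as deposited and 0.02 with TMM. Depth limits the lowest tested members: Slc25a2, Slc25a18 and Slc25a27 had the lowest mean normalized counts, 15.4, 22.9 and 31.6.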
